A study of Homo sapiens with 4 samples.

Results

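The desmosome genes are 10 genes that encode the building parts of the desmosome, taken from a fixed list of symbols: DSG2, DSG3, DSC2, DSC3, DSP, JUP, PKP1, PKP2, PKP3 and PERP. Each was read from the probe set annotated to that symbol alone. Every one of the 10 has exactly 1 such probe set, out of 20916 genes with a value. RNA was measured in MCF10A, a non-tumorigenic human breast epithelial line, with 4 stable transfections and 1 array for each. The double-label array is the one labelled with Her2 (the receptor tyrosine kinase gene ERBB2) and PIK3CA-H1047R (an activated form of the catalytic subunit of a lipid kinase). The PIK3CA-label array is labelled PIK3CA-H1047R alone and the Her2-label array Her2 alone. The LacZ array, of cells with a bacterial enzyme gene, is the control. All cells grew in SFIHE medium without treatment, and 400 ng of total RNA entered each labelling reaction. The labels do not give the promoter behind the introduced genes, or whether a line is 1 clone or a pool. With 1 array per label, no difference has a replicate error, no test is possible, and neighbouring values in any order below cannot be set against a spread.

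Desmosomes are spot junctions that tie the keratin filaments of neighbouring epithelial cells together. Desmogleins (DSG) and desmocollins (DSC), members of the cadherin family, bridge the gap between cells. Inside the cell their tails bind the armadillo proteins plakoglobin (JUP) and the plakophilins (PKP), and these bind desmoplakin (DSP), a plakin that holds the keratin filaments. PERP is a tetraspan membrane protein that stabilises desmosomes in stratified epithelia and is a target of p53 and p63. In breast epithelium desmosomes join both basal and luminal cells.

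The ERBB2 gene goes against the labels. The probe set that reads it, shared with the microRNA gene MIR4728, had log2 values of 7.39 on the double-label array, 8.48 on the PIK3CA-label array, 4.29 on the Her2-label array and 5.96 on the LacZ array. It is thus lowest on the array labelled Her2 alone and highest on the array labelled PIK3CA-H1047R alone, and every direction below is given for an array by its label. The labels of the arrays with 1 introduced gene may be exchanged, which was not tested. Each result for the PIK3CA-label or the Her2-label array may then belong to the other transfection. PIK3CA itself was not analysed here. The median probe set read between 1.13 and 1.17 (log2) on each of the 4 arrays. Values are log2, so a difference of 1 is 2-fold, and a gene was called higher or lower at that size. Shares of all genes refer to 4312 counted genes, those read at log2 5 or above on any of the arrays. Of the 10 desmosome genes 8 are counted, and each of the 8 reaches that value on the LacZ array too. PKP1 and PKP3 are below it on all 4 arrays. Levels of different genes were not compared with each other, because probe sets differ in brightness.

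The double-label array had the lowest value of all 4 arrays for 9 of the 10 desmosome genes. The exception was PKP1, which lay at the array median on all arrays. The PIK3CA-label array had the highest value for 7 of the 10, namely the 4 cadherins, DSP, PKP2 and PERP. JUP and PKP3 were highest on the LacZ array. Among all counted genes, 30.8% had their lowest value on the double-label array and 25.8% their highest on the PIK3CA-label array. Of the 8 counted desmosome genes, 8 were lowest on the first and 7 highest on the second.

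**Figure D1:**
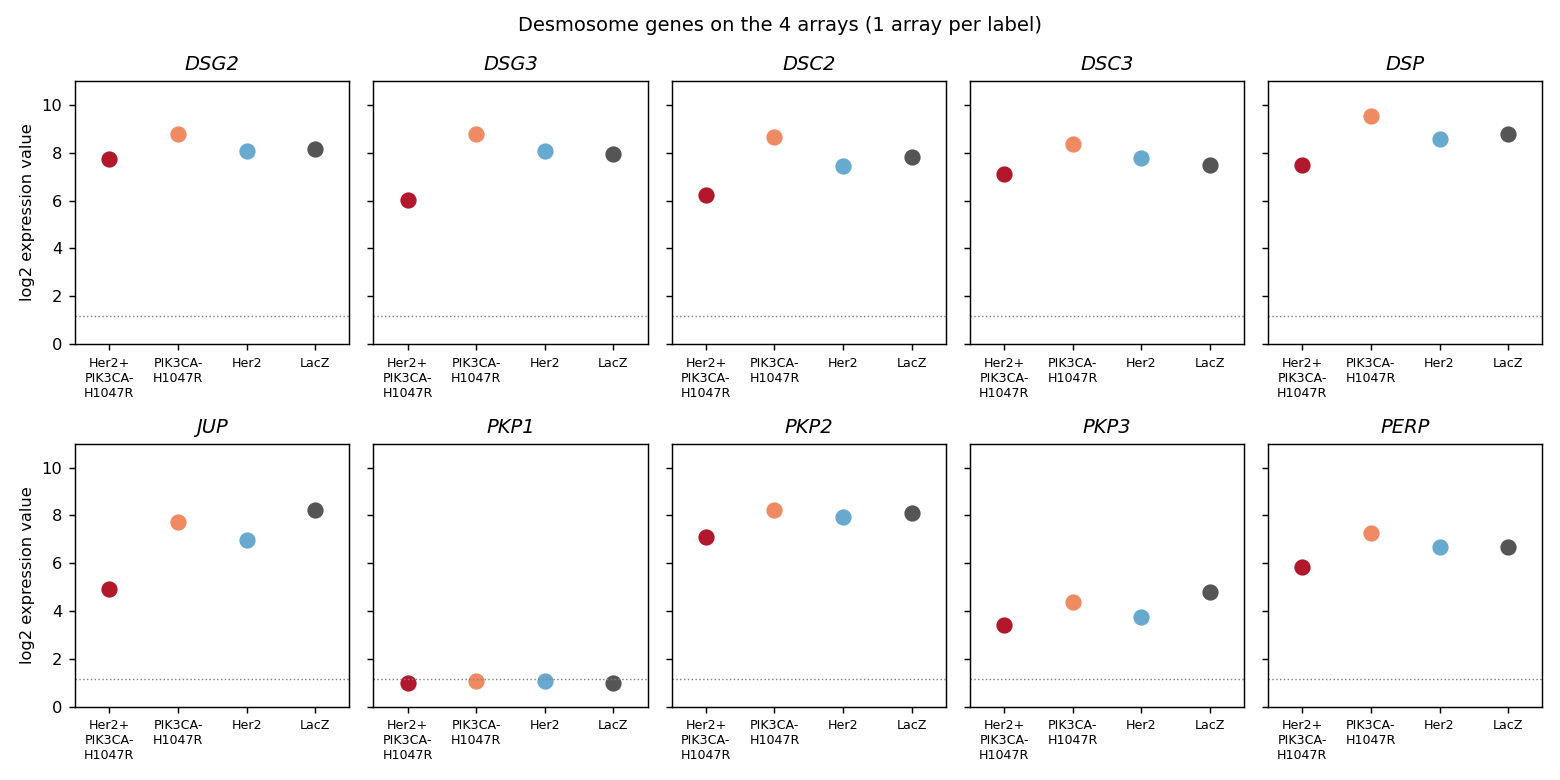
Log2 expression values of the 10 desmosome genes on the arrays labelled Her2+PIK3CA-H1047R, PIK3CA-H1047R, Her2 and LacZ, 1 point per array, with the mean of the 4 array medians as a dotted line. The double-label point is the lowest in every panel but that of PKP1, and JUP spans the widest range, 3.29 log2 units.

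Among the desmosomal cadherins, the desmoglein DSG3, best known from basal layers of stratified epithelia and as the pemphigus vulgaris antigen, differed most. DSG3 (probe set 16851749) had values of 6.01 on the double-label array, 8.76 on the PIK3CA-label array, 8.09 on the Her2-label array and 7.95 on the LacZ array. The double-label value stands alone, and the 3 others lie within 0.82 of each other. It was lower by 1.94 log2 units than the LacZ value (a difference of -1.94, 3.83-fold) and by 2.76 than the PIK3CA-label value (-2.76, 6.75-fold). DSG2, the desmoglein found in nearly all tissues with desmosomes (probe set 16851768), had values of 7.74, 8.77 and 8.06 on the double-label, PIK3CA-label and Her2-label arrays, and 8.14 on the LacZ array. It followed the same order of highest and lowest array, but over a range of only 1.03, and differed between the double-label and the LacZ array by -0.40.

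The desmocollins split in a similar way. DSC2, the widely expressed desmocollin (probe set 16854486), had values of 6.22 on the double-label array, 8.65 on the PIK3CA-label array, 7.43 on the Her2-label array and 7.82 on the LacZ array. It was thus 3.03-fold lower on the double-label than on the LacZ array (-1.60), and 5.38-fold lower than on the PIK3CA-label array (-2.43). DSC3, the desmocollin of basal cells (probe set 16854466), had values of 7.12 on the double-label, 8.36 on the PIK3CA-label, 7.78 on the Her2-label and 7.47 on the LacZ array. Its double-label value differed by -0.35 from the LacZ value, less than 2-fold, and by -1.24 from the PIK3CA-label value. The desmoglein with the larger gap is thus the one of basal layers, and the desmocollin with the larger gap the widely expressed one.

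The starts of these 4 genes are shown because adjacent relatives on chromosome 18 differed in size on the double-label array, DSG3 against DSG2 and DSC2 against DSC3. They come from RefSeq (build GRCh38.p14), from 250 bases before to 50 bases after each gene's start, 5′ to 3′ in the direction of transcription. DSG3 lies at chr18:31447491-31447790, plus strand, DSG2 at chr18:31497927-31498226, plus strand, DSC2 at chr18:31102372-31102671, minus strand and DSC3 at chr18:31042693-31042992, minus strand. Capitals mark the E-box letters CAGGTG or, read on the other strand, CACCTG, a core that factors of the SNAI and ZEB families bind.
DSG3: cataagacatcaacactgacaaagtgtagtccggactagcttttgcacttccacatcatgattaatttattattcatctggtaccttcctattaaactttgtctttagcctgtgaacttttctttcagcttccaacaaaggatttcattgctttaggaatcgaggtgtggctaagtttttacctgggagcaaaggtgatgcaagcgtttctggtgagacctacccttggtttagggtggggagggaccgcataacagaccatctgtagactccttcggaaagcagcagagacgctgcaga
DSG2: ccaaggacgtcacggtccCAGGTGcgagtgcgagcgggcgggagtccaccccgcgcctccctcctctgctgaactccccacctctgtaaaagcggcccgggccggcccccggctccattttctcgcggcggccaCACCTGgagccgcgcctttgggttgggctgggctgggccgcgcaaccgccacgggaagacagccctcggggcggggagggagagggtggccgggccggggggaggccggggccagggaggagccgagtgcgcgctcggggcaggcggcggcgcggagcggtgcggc
DSC2: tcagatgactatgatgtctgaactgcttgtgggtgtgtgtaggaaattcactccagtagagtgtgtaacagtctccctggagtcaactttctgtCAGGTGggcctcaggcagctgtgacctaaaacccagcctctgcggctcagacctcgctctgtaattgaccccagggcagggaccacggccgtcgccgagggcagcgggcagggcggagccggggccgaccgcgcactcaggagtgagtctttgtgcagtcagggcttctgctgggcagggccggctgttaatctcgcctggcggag
DSC3: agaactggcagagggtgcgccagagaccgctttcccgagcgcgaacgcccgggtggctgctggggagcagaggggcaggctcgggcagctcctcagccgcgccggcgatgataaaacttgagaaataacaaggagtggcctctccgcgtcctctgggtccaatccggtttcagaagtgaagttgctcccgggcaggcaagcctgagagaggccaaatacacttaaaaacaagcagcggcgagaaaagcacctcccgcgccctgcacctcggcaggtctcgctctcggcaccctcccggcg

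RefSeq promoters were matched for 8 of the 10 genes, all but PKP2 and PKP3. The E-box letters were found in 3 of the 8, at 232 and 116 bases before the start of DSG2, 156 before that of DSC2, and 178 and 85 before that of DSP. They are held by 20.6% of all 35116 promoters of this length. The 4 cadherin promoters do not sort by these letters, since DSG3 with its large gap and DSC3 with its small gap hold none. The grainyhead letters AACNGGTT were found in 0 of the 8, against 1.73% of all promoters. The AP-1 letters TGANTCA, which overlap no other match here, were found in 1, PERP, 101 bases before its start, against 7.71%. Both strands were searched each time. These are matches of letters and show no binding.

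DSP, the plakin that links the junction to keratin filaments (probe set 17004612), had values of 7.50 on the double-label array, 9.52 on the PIK3CA-label array, 8.59 on the Her2-label array and 8.79 on the LacZ array. The double-label array was lower than LacZ by 1.29 (a difference of -1.29, 2.44-fold). Against the PIK3CA-label array, the highest of the 4, it was lower by 2.02 (-2.02, 4.07-fold). The Her2-label and LacZ values differed by -0.20.

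JUP, which sits in desmosomes and in adherens junctions and is a close relative of beta-catenin, had the widest range of the 10. JUP (probe set 16844872) had values of 4.93 on the double-label array, 7.72 on the PIK3CA-label array, 6.99 on the Her2-label array and 8.23 on the LacZ array. All 3 arrays with an oncogene label lie below LacZ. The double-label value corresponds to 10.2% of the LacZ level, a 9.79-fold difference (-3.29). On the Her2-label array it was lower by 1.24 (-1.24), past 2-fold, and on the PIK3CA-label array by 0.50 (-0.50).

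The plakophilins, which cluster the cadherins laterally and recruit desmoplakin, did not share 1 pattern. PKP2 (probe set 16763032), the plakophilin also known from cardiac desmosomes, had values of 7.08 on the double-label array, 8.22 on the PIK3CA-label array, 7.96 on the Her2-label array and 8.12 on the LacZ array. Its difference between the double-label and LacZ arrays was -1.03, just past 2-fold, and the other 3 values lie close together. PKP3 (probe set 16720139), found in most simple and stratified epithelia, had lower values throughout. It gave 3.42 on the double-label array, 4.39 on the PIK3CA-label array, 3.77 on the Her2-label array and 4.79 on the LacZ array, and so ranked the arrays as JUP did. It was lower than LacZ by 1.37 on the double-label array (-1.37) and by 1.02 on the Her2-label array (-1.02). PKP1 (probe set 16675763), the plakophilin of upper epidermal layers, read 0.99, 1.06 and 1.09 on the double-label, PIK3CA-label and Her2-label arrays, and 0.98 on the LacZ array. Those values sit at the array medians, so no difference of PKP1 can be read at this signal.

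PERP (probe set 17024187) had values of 5.84 on the double-label array, 7.26 on the PIK3CA-label array, 6.66 on the Her2-label array and 6.67 on the LacZ array. The Her2-label and LacZ values are nearly equal. The double-label array was lower than LacZ by 0.83 (-0.83), short of 2-fold, and lower than the PIK3CA-label array by 1.42 (-1.42).

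Counted together, 6 of the 10 genes were at least 2-fold lower on the double-label than on the LacZ array (DSG3, DSC2, DSP, JUP, PKP2 and PKP3), and 0 were at least 2-fold higher. PKP3 is not a counted gene, and 5 of the 8 counted members were lower. Among all counted genes 11.1% were called lower and 13.8% higher in that comparison. All 8 counted desmosome genes had negative differences, with a median of -1.16, also the median of all 10, against 0.04 over all counted genes. The 4 that were less than 2-fold lower or not lower were DSG2, DSC3, PERP and PKP1.

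**Figure D2:**
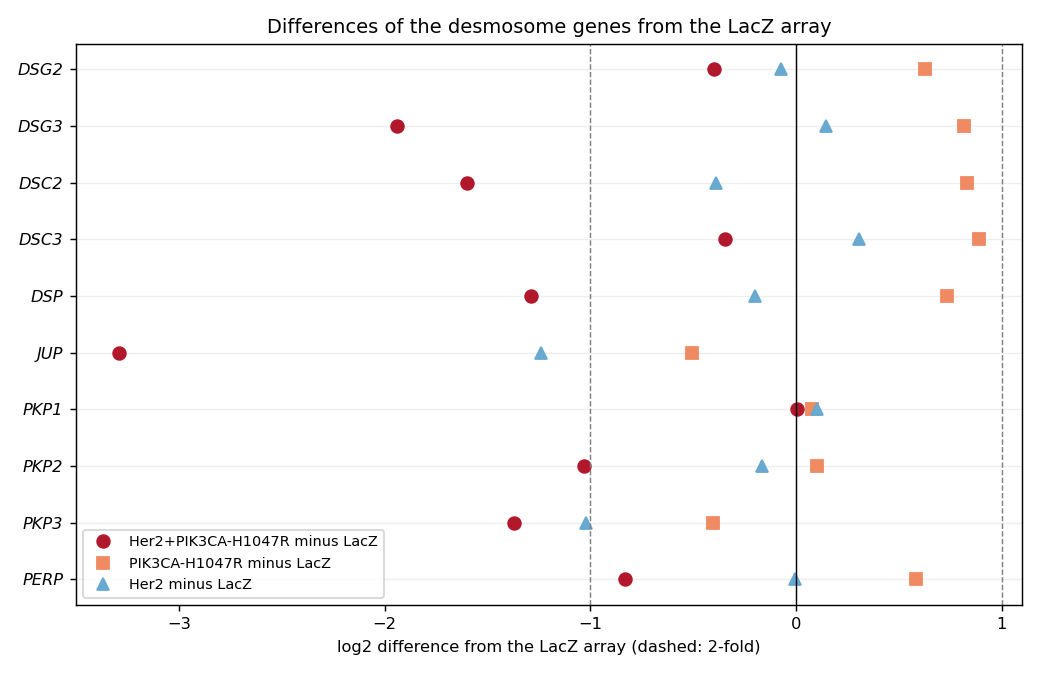
Log2 differences of the 10 desmosome genes from the LacZ array, for the arrays labelled Her2+PIK3CA-H1047R (circles), PIK3CA-H1047R (squares) and Her2 (triangles), with dashed lines at 2-fold. Circles reach -3.29 for JUP, most squares lie between 0.59 and 0.89, and the triangles of JUP and PKP3 alone lie beyond -1.

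Set against the PIK3CA-label array, 8 of the 10 genes were at least 2-fold lower on the double-label array, and these are all 8 that are counted. Of all counted genes 8.88% were called lower, and 432 of the 4312 were called higher. The differences ran from -1.03 for DSG2 to -2.79 for JUP, with a median of -1.72 over the 8 and -1.33 over all 10, against -0.01 over all counted genes. DSG2 passed 2-fold narrowly and was at -0.93 or -0.92 when the counted genes were normalized again by quantiles or cyclic loess. PKP3 differed by -0.97.

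Against the Her2-label array, 4 of the 10 were at least 2-fold lower on the double-label array, with 6.10% of all counted genes called lower and 9.09% higher. These were DSG3 (-2.08), JUP (-2.05), DSC2 (-1.21) and DSP (-1.09). PKP2 (-0.87), PERP (-0.83), DSC3 (-0.65), PKP3 (-0.35) and DSG2 (-0.32) were lower by less. The median was -0.85 over the 10 and -0.98 over the 8 counted, against 0.01 over all counted genes. The 3 comparisons with the double-label array share that array, so a low reading of it would enter all of them.

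**Figure D3:**
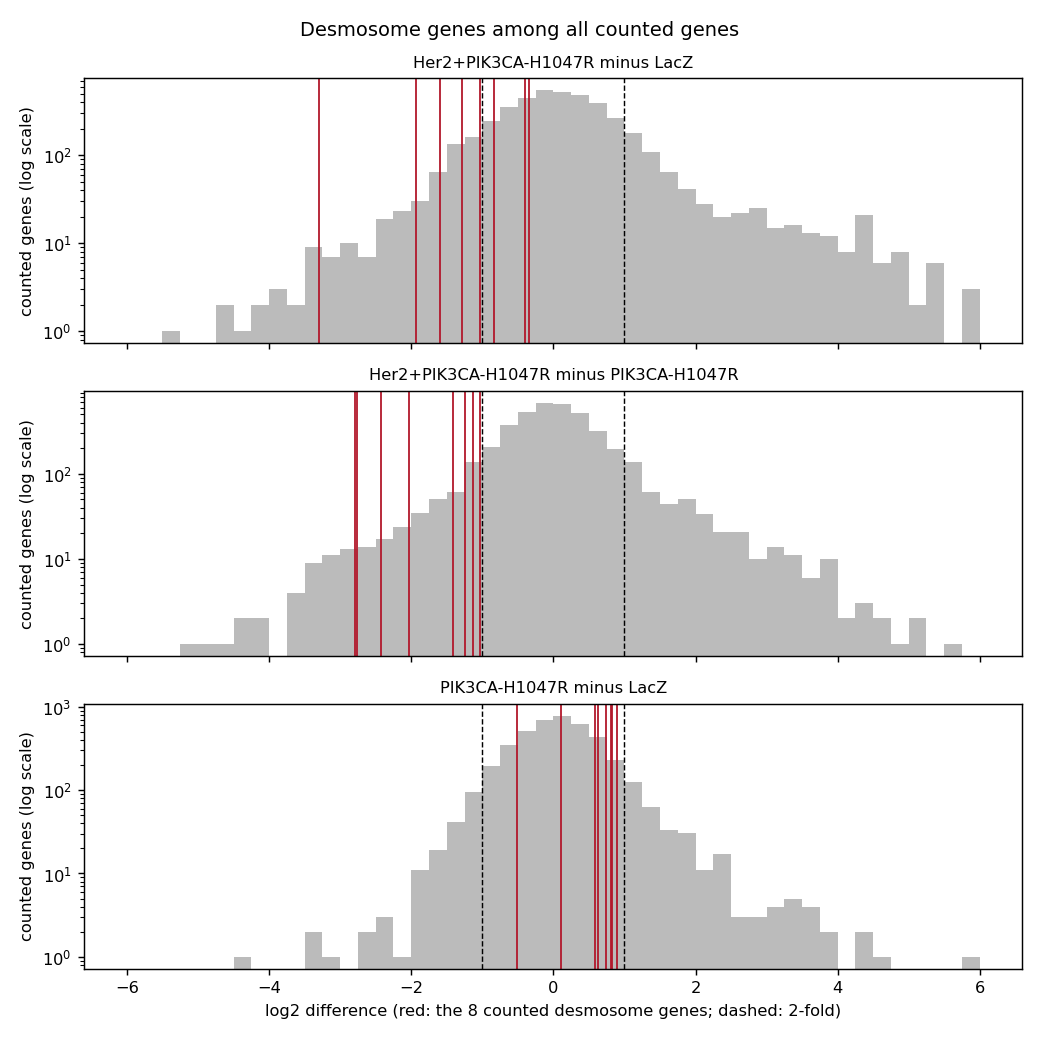
Histograms of the log2 differences of all 4312 counted genes in 3 comparisons (number of genes on a log axis), with the 8 counted desmosome genes as red lines and 2-fold as dashed lines. The red lines lie left of 0 in the upper panels, from -3.29 to -0.35 and from -2.79 to -1.03, and mostly right of 0 in the PIK3CA-H1047R minus LacZ panel.

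On the Her2-label array 2 of the 10 genes were at least 2-fold lower than on the LacZ array, JUP and PKP3. Of the 8 counted members 1, JUP, was lower, against 2.57% of all counted genes called lower and 2.95% higher. The other counted members lay between -0.39 (DSC2) and 0.31 (DSC3), and the median of the 10 was -0.12. Of the 4 cadherins 2 had slightly higher and 2 slightly lower values than on the LacZ array. No desmosome gene was called higher.

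On the PIK3CA-label array 0 of the 10 genes differed 2-fold from the LacZ array in either direction, where 4.08% of counted genes were called lower and 7.07% higher. Most members were nevertheless above LacZ by a similar step. The differences were 0.89 for DSC3, 0.83 for DSC2, 0.82 for DSG3, 0.74 for DSP, 0.63 for DSG2 and 0.59 for PERP. These 6 were at least 1.5-fold higher, PERP only just, while 18.6% of all counted genes were. When the counted genes were normalized again, DSG2 (0.57 by quantiles, 0.56 by cyclic loess) and PERP (0.51 and 0.50) fell below 1.5-fold. PKP2 differed by 0.10, and JUP and PKP3 by -0.50 and -0.40. The median was 0.61 over the 10 and 0.68 over the 8 counted, against 0.07 over all counted genes.

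With the PIK3CA label the cadherins, DSP and PERP were therefore higher than LacZ where the Her2 label was absent, and lower than the Her2-label array where it was present. Departure from additivity (the double-label value minus both single-label values plus the LacZ value) measures this on the log2 scale. It was -2.90 for DSG3, -2.04 for DSC2, -1.83 for DSP, -1.55 for JUP, -1.55 for DSC3 and -1.41 for PERP. These 6 were at or below -1, where 9.04% of counted genes were, and 0 were at or above 1, where 9.49% were. PKP2 (-0.97) and DSG2 (-0.95) came just short, and PKP3 was near additive at 0.05. For JUP and PKP3 both single-label arrays already lay below LacZ. The members thus differ in form. PKP3, which is below the counting level, was as low with both labels as its 2 single differences add up to. JUP was lower than its single differences add up to. DSG3, DSC2, DSP and, narrowly, PKP2 were 2-fold below LacZ with both labels only. Each value rests on all 4 arrays and has no error.

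**Figure D4:**
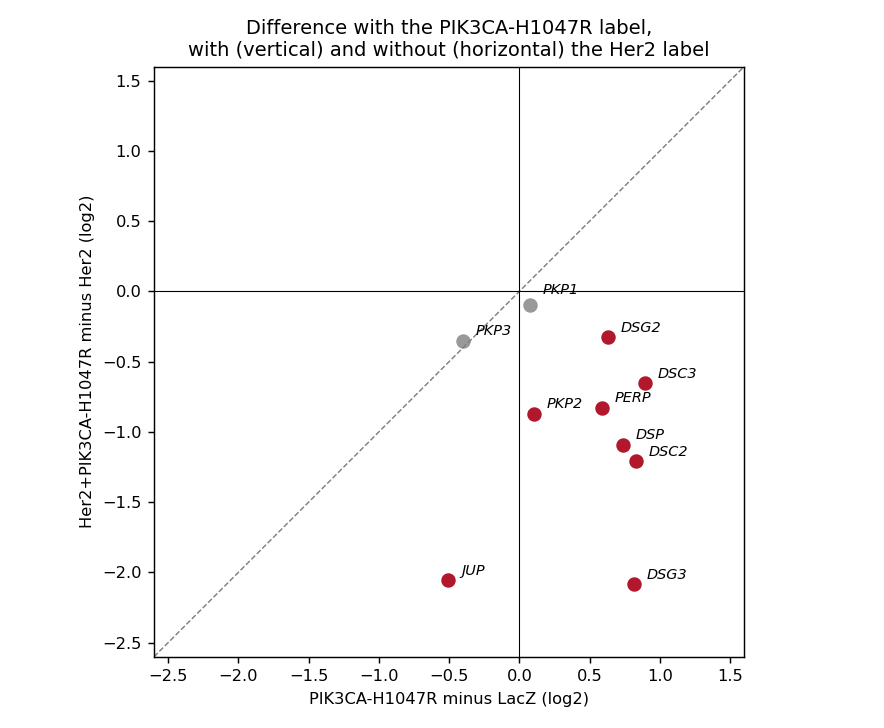
Log2 difference with the PIK3CA-H1047R label in the presence of the Her2 label (vertical axis, double-label minus Her2-label array) against that in its absence (horizontal axis, PIK3CA-label minus LacZ array), 1 point per gene, with grey points for PKP1 and PKP3 and a dashed line of equality. Points of the 4 cadherins, DSP, PKP2 and PERP lie right of 0 and below 0, and PKP3 lies near the line.

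The desmosomal cadherin genes form 1 cluster on chromosome 18, in the order DSC3, DSC2, DSC1, DSG1, DSG4, DSG3, DSG2 in the RefSeq table. The desmocollins and desmogleins at its ends carried signal, while the 3 in its middle, DSC1, DSG1 and DSG4, which are known from upper epidermis and hair, read between 0.38 and 1.24 on every array. Beside the cluster, next to DSC3 among genes with a value, lies CDH2 (N-cadherin, a classical cadherin of mesenchymal and neural cells). It ran the opposite way, with 5.34 on the double-label array, 1.54 on the PIK3CA-label array, 1.67 on the Her2-label array and 0.97 on the LacZ array. CDH2 read at most 1.67 on the 3 other arrays, so the size of its difference from LacZ (4.37) depends on the background signal. On the far side, TTR read at most 1.83 on every array, and B4GALT6 beyond it differed between the double-label and LacZ arrays by 1.80. B4GALT6 was below the counting level on every array.

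Neighbours of the other members gave mixed values. Beside JUP on chromosome 17, EIF1, a translation initiation factor, differed between the double-label and LacZ arrays by -0.62 and NT5C3B by -0.43, against -3.29 for JUP itself. Beside DSP on chromosome 6, RIOK1 differed by 0.02 and SSR1 by 0.29. SNRNP48, next to DSP on its other side, read 4.47 on the double-label array, against 2.96 on the LacZ array. BMP6, a bone morphogenetic protein gene beyond it, differed by -1.57 there and by 2.89 between the PIK3CA-label and LacZ arrays. BMP6 read 1.29 on the double-label and 2.86 on the LacZ array, so the size of its differences depends on the background signal. Beside PERP, TNFAIP3, an inhibitor of NF-kB signalling, differed by 1.86, with 4.83 on the double-label and 2.97 on the LacZ array. TNFAIP3 reached log2 5 on the PIK3CA-label array only (6.03). ARFGEF3, on the other side of PERP, differed by -1.55, with PERP itself at -0.83. ARFGEF3 read only 1.97 on the double-label and 3.52 on the LacZ array, and is below the counting level. The neighbours named were picked with their values in view.

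Genes that work with desmosomes were described as 7 lists, whose counts include genes of low signal. Among their counted genes alone, on the double-label against the LacZ array, 3 of 4 keratins were lower and 0 higher, and 2 of 6 adherens junction genes were lower and 0 higher. Of 6 counted hemidesmosome genes 2 were lower and 1 higher, as were 2 and 1 of 6 kinases and proteases. Of 4 counted transcription factors 1 was lower and 1 higher. The 2 counted cornified envelope and plakin genes were PPL (periplakin), which was lower, and PNN (pinin, not a plakin), higher by 1.06. The higher genes DST, PRKCA and TWIST1 of the other lists read below log2 5 on the LacZ array. They are counted only through arrays where they are higher, so their calls are partly set by the filter. Over all counted genes 11.1% were lower and 13.8% higher, and with so few genes a list nothing particular to a list can be read from these counts. Of the 4 other desmosomal cadherins and plakophilins, 0 differed 2-fold from LacZ on any array. PKP4, the plakophilin relative of adherens junctions, was the only one with signal and differed by -0.14 on the double-label array. Of 8 cornified envelope and plakin genes 3 were lower and 2 higher on the double-label array. PPL (periplakin) differed there by -1.78. The small proline-rich gene SPRR1B read 2.62 there, against 1.12 on the LacZ array, and SPRR1A differed by 0.69. On the PIK3CA-label array SPRR1B differed from LacZ by 3.30 and SPRR1A by 1.90. These 2 genes are near-identical in part, and 6 of the 8 genes are below the counting level.

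Of 8 keratins with a value among 11 listed, 3 were lower and 1 higher on the double-label than on the LacZ array, and the median was -0.26. KRT5, the basal keratin partner of KRT14, differed by only -0.13, while KRT16 differed by -1.52 and KRT80 by -1.32. On the Her2-label array KRT80 differed by -2.39. KRT14 differed by 1.96 on the double-label array but stayed at a log2 value of 3.43 there, and keratin genes resemble each other enough for probes to be shared.

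Adherens junction partners showed 2 large differences and otherwise small ones. On the double-label array 2 of 9 were lower than LacZ and 0 higher, with a median of -0.44. The 2 were the classical cadherins CDH1 (E-cadherin, -4.27) and CDH3 (P-cadherin, -3.24). CTNNB1 (beta-catenin), the relative of JUP, differed by 0.47. NECTIN4, a nectin, differed by 1.09 on the PIK3CA-label array, but is below the counting level on every array. Of 6 hemidesmosome genes, which anchor cells to the basement membrane, 2 were lower and 1 higher on the double-label array. LAMB3, a laminin chain, differed by -1.67, the integrin ITGB4 by -1.30 and DST, which encodes the hemidesmosomal plakin BP230 among other forms, by 2.05.

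**Figure D5:**
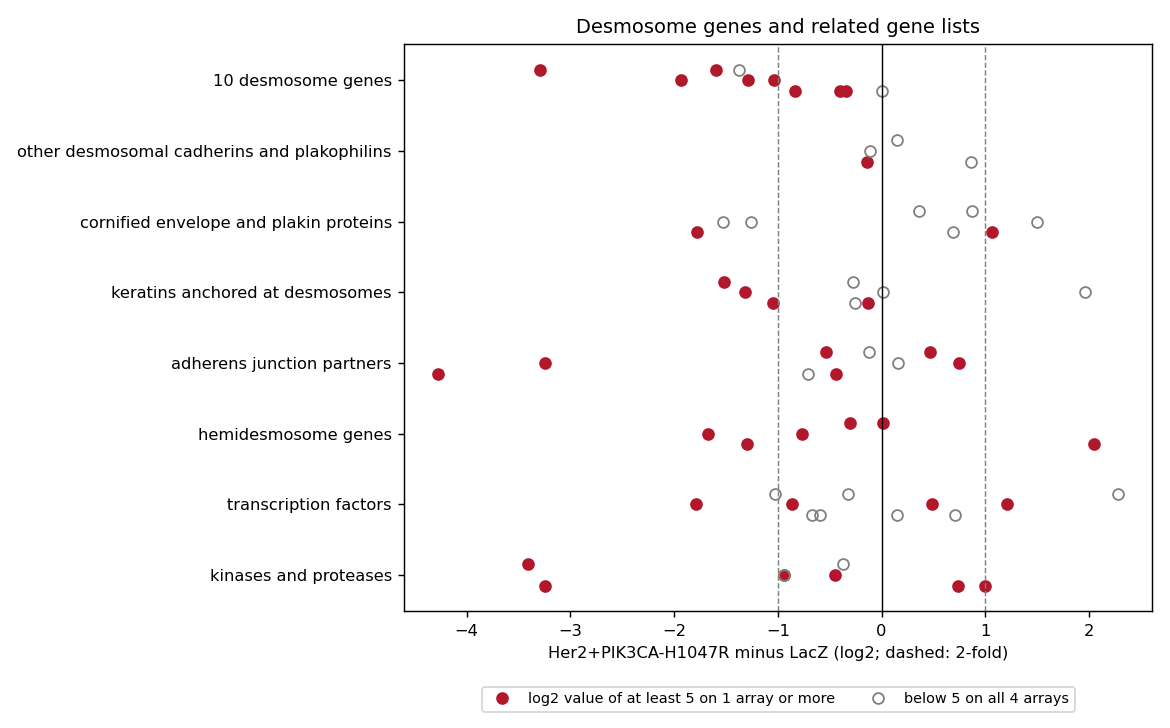
Log2 differences between the double-label and LacZ arrays for the 10 desmosome genes and the genes of 7 related lists, 1 point per gene, filled where the gene is a counted one, with dashed lines at 2-fold and small vertical offsets for legibility. All filled desmosome points lie left of 0, from -3.29 to -0.35, as do all filled keratin points and the filled point of PKP4. With open points included, every row has points on either side of 0, the desmosome row through PKP1 (0.01).

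Of 11 transcription factors known to act on desmosomal or epithelial genes, 2 were lower and 2 higher on the double-label than on the LacZ array. GRHL2, a grainyhead factor of epithelial cells, had values of 3.36 on the double-label array, 5.12 on the PIK3CA-label array, 4.32 on the Her2-label array and 5.14 on the LacZ array. Its difference between the double-label and LacZ arrays was -1.79. ZEB1, a repressor of epithelial genes, had 3.36, 1.76 and 1.97 on the double-label, PIK3CA-label and Her2-label arrays, and 1.08 on the LacZ array. TWIST1 differed from LacZ by 1.21 on the double-label and by 1.83 on the Her2-label array, and SNAI2 by 0.49 and 0.45. TP63 was not analysed here. Of 8 kinases and proteases that act on desmosomes 2 were lower and 1 higher on the double-label array. KLK5 and KLK7, kallikreins that cleave desmosomal proteins in skin, differed by -3.41 and -3.25. PRKCA, a protein kinase that loosens desmosomes, differed by 1.00 there and by -1.08 on the PIK3CA-label array.

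The fixed markers of the line were partly in place. Of 6 epithelial markers with a value, EPCAM, CDH1 and KRT5 carried signal on all arrays, while KRT8, KRT18 and KRT14 stayed below a log2 value of 4. The log2 of the summed level of the 6 was 7.96 on the double-label, 9.94 on the PIK3CA-label, 9.60 on the Her2-label and 10.05 on the LacZ array. Of the 6, 2 were at least 2-fold lower on the double-label than on the LacZ array and 1 was higher. The 2 were CDH1 (-4.27) and EPCAM, an epithelial adhesion protein (-2.22), and the 1 was KRT14 (1.96), which is not counted. KRT5 (-0.13), KRT8 (0.01) and KRT18 (-0.27) differed little. CDH1 had the highest value of the 6 on the LacZ array (9.34) and weighs most in the sum there. It read 5.07 on the double-label array. Markers of mesenchymal cells and fibroblasts also differed on the double-label array. Of 7, 4 were at least 2-fold higher on the double-label than on the LacZ array and 0 lower. Of all counted genes 13.8% were called higher and 11.1% lower there, but the count of 4 cannot be read against these shares. CDH2, LUM and DCN are counted only through the double-label array, where they are high, and VIM, PDGFRB and THY1 are not counted. The log2 of the summed level of the 7 markers was 10.49 on the double-label, 9.13 on the PIK3CA-label, 10.92 on the Her2-label and 8.59 on the LacZ array. Nearly all of that sum is FN1 (fibronectin), which read 10.32 on the double-label, 9.09 on the PIK3CA-label, 10.91 on the Her2-label and 8.54 on the LacZ array. CDH2, LUM and DCN read at most 1.67 on the Her2-label array. The sum adds probe sets of different brightness. LUM (lumican) read 6.26 and DCN (decorin) 5.06 on the double-label array, and both lay between 0.52 and 1.15 on the 3 others. VIM, PDGFRB and THY1, also in that list, stayed at or below 2.06 on all arrays. For VIM, as for KRT18, low RNA cannot be told apart from a probe set that reads poorly. The part of such cells in the lower desmosome values was not tested, and fewer cells with desmosomes cannot be told apart from less RNA per cell. Leukocyte and endothelial markers with a value read at most 1.15 on any array.

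The counted genes most like JUP, by Euclidean distance over the 3 differences from LacZ, were B3GNT3 (0.19), KLK5 (0.21), SMOC1 (0.24) and KRT15 (0.27). B3GNT3, a glycosyltransferase, differed by -3.25 on the double-label, -0.55 on the PIK3CA-label and -1.06 on the Her2-label array. For PKP1, the gene with the narrowest range, the nearest were SEC23B (0.05), PLPPR2 (0.06), RC3H2 (0.07) and RPRD2 (0.07), but PKP1 itself carries no signal above the array median. DSG2 had the narrowest range of the members with signal and was added after its values were seen. Nearest to it were THSD4 (0.09), BLVRB (0.10), CAB39 (0.11) and PPP4R3A (0.12).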

How the data were processed

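The authors deposited log2 expression values per probe set for 4 biotin-labelled arrays. The submitters' processing notes name RMA and oligo. The sources used here give no versions, probe set definition or filters. That the deposited values are log2 follows from RMA and their range of -0.77 to 12.35. No depth applies to arrays, and their number limits the precision.

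Of 53617 probe sets, 23871 have 1 symbol in the platform annotation, 1842 several and 27904 none. Symbols were updated through gene identifiers with RefSeq (GRCh38.p14), which changed 90. Small RNAs, ERBB2 and PIK3CA were left out, and of several probe sets the one with the highest mean was kept. Counted genes read log2 5 or above on any array. Groups follow the stable transfection label. Differences were called at 2-fold without a test, as 1 array stands for each label. The differences and calls were tested on simulated data.

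Members and lists were chosen with earlier results of these data known. Named were all 10 genes, the 3 list members farthest from LacZ and at least 2-fold away, the 4 nearest genes of 2 members, and ERBB2. Further list members and neighbouring genes were picked with their values in view. The alternatives tried were other filters (none, 3 or 7), quantile and cyclic loess normalization (limma), other probe set rules and thresholds of 1.5-fold and 3-fold. Python 3.11.15, pandas 2.3.3, R 4.3.3 and limma 3.58.1 were used.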

Additional observations from a re-analysis of the deposited data

Results flagged for a closer look

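For 8 of the 10 desmosome genes the difference with the PIK3CA-H1047R label ran opposite ways with and without the Her2 label. These were the 4 cadherins, DSP, PKP1, PKP2 and PERP. The departure from additivity of each was -2.90 for DSG3, -2.04 for DSC2, -1.83 for DSP, -1.55 for DSC3, -1.41 for PERP, -0.97 for PKP2, -0.95 for DSG2 and -0.17 for PKP1. Among all counted genes 37.3% ran opposite ways in these comparisons. Each of the 8 was higher without the Her2 label and lower with it, as were 21.0% of all counted genes. PKP1 lies at the array median, so its sign carries no information, and without it 7 of the 8 counted desmosome genes remain. For 3 genes the difference with the Her2 label also ran opposite ways, DSG3 (-2.76 with and 0.15 without the PIK3CA-H1047R label), DSC3 (-1.24 and 0.31) and PKP1 (-0.07 and 0.10). Of all counted genes 40.1% did so with that label, so the count of desmosome genes does not exceed the background. The departure from additivity is the same value for either label. With 1 array per label the difference between these effects was not tested.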

How the results depend on the processing

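Every desmosome gene called at 2-fold kept its direction in all settings run. Of 276 single values under other scalings or probe set rules, 272 kept their side of the 2-fold threshold. The mean and the lowest probe set rule gave 60 of the values each. Those could not move, because each desmosome gene has 1 probe set, and they say nothing on stability. DSG2 between the double-label and PIK3CA-label arrays was -0.93 (quantile normalization) and -0.92 (cyclic loess of the counted genes). PKP3 there (-1.11) and, narrowly, the departure of PKP2 passed it after quantile normalization of all probe sets. That setting also turned the sign of 2 values near 0, PERP between the Her2-label and LacZ arrays (0.004 against -0.007) and the departure of PKP3 (-0.04 against 0.05). The median of the 8 counted genes between the double-label and Her2-label arrays was -1.02 after quantile normalization and -0.93 after cyclic loess of the counted genes, against -0.98. With the filter at 7 or either normalization of the counted genes, the 2 genes lower on the Her2-label array became 1. The 6 genes lower on the double-label than on the LacZ array became 5. In both cases PKP3 drops out, which is below the counting level of log2 5 in the main setting too. With a 1.5-fold threshold 6 genes were higher on the PIK3CA-label than on the LacZ array (0 at 2-fold) and 7 lower on the double-label than on the Her2-label array (4 at 2-fold). Of all counted genes 18.6% and 15.8% were so at 1.5-fold. Between the PIK3CA-label and LacZ arrays, DSG2 and PERP fell below 1.5-fold after either normalization of the counted genes. With a 3-fold threshold the lower genes numbered 3 for double-label against LacZ, 4 against PIK3CA-label and 2 against Her2-label, and 0 for Her2-label against LacZ. Of all counted genes 3.71%, 3.71%, 2.13% and 0.441% were lower by 3-fold in these comparisons. Each desmosome gene has 1 probe set, so the probe set rules changed only the genes around them. Among all counted genes the share of higher calls was 49.9% (quantile) and 51.9% (cyclic loess), against 63.4% as deposited, for PIK3CA-label against LacZ, and 49.1% and 45.0%, against 59.9%, for double-label against Her2-label. Arrays limit all values: with 1 per label no error can be given.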
